A study of Mus musculus with 6 samples.

Results

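The cornified envelope genes described here were taken from the count table by gene symbol: every gene named Lce or Sprr followed by a digit, together with Flg, Flg2, Hrnr, Rptn, Tchh, Ivl, Lor and Crct1. S100 genes of the same chromosomal cluster were left out. This rule found 42 of 19618 genes: 19 Lce genes, 15 Sprr genes, 5 fused-type genes (Flg, Flg2, Hrnr, Rptn and Tchh) and the 3 single genes Ivl, Lor and Crct1. One further symbol of the rule, Tchhl1, was not analysed here. The filter on low counts was passed by 35 of the 42, namely 16 Lce, 11 Sprr, all 5 fused-type and all 3 single genes.

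The cornified envelope is the protein shell that replaces the plasma membrane of a keratinocyte as it dies and becomes a cell of the horny layer. Involucrin (Ivl) is laid down early, loricrin (Lor) and the small proline-rich proteins (Sprr) are then cross-linked to it by transglutaminases, and the late cornified envelope proteins (Lce) are added last. Filaggrin (Flg) and the other fused-type proteins join a calcium-binding S100-like domain to long repeats; filaggrin bundles keratin filaments and is later broken down into amino acids that hold water in the horny layer. These genes lie side by side in the epidermal differentiation complex and are switched on as keratinocytes leave the basal layer.

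Tail keratinocytes of mice aged 4 months were sequenced as polyadenylated RNA, in 3 knockout and 3 control libraries. The knockout mice carried K14cre, a Cre recombinase under the keratin 14 promoter, which is active in basal keratinocytes, and both copies of a floxed Gpr161 allele; the labels list no K14cre in the controls, of which one was homozygous and the other two heterozygous for the floxed allele. Gpr161 encodes a ciliary receptor that restrains Hedgehog signalling, and the comparison asks how expression differs when it is deleted in the epidermis. No control carried Cre alone, the sex of the mice is not in the labels, and cells that never used the keratin 14 promoter keep the gene. Column names give the group and a tag but no sample title, so libraries are called by their tags: DE679, DE685 and DE688 for the knockout, DE680, DE684 and DE689 for the control. Values of single libraries are given in that order throughout.

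Total estimated counts were 17157864 in DE685 and 23074226 to 25344399 in the other libraries. Gpr161 itself stood at 26.8, 33.6 and 25.9 CPM in the knockout libraries and 30.2, 32.2 and 31.9 CPM in the controls. Its log2 fold change was −0.13 with a standard error of 0.11 and an edgeR adjusted p of 0.553, so counts over the whole gene do not check the labels; whether the floxed exons were missing was not analysed here. Gli1 and Ptch1, targets of the Hedgehog pathway, rose in the knockout, Gli1 by a log2 value of 2.93 with a standard error of 0.10 and an edgeR adjusted p of 1.77e-05, and Ptch1 by 1.58 with a standard error of 0.13 and an edgeR adjusted p of 0.00228. Y-linked transcripts were counted in 1 library of each group (DE685 and DE684). Markers of the labelled cell type were present: Krt5 and Krt14, the keratins of the basal layer, stood at 12799 and 10194 CPM in the control, and Krt1 and Krt10, those of the suprabasal layers, at 3018 and 18873 CPM. CPM is the usual depth-scaled count, here with library totals adjusted by TMM (trimmed mean of M values) factors.

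The Lce1 genes are close copies of one another, so that reads from one can match another. The first 60 coding bases of 4 of them, from the GENCODE M21 transcripts of GRCm38, show how close they are; capitals mark bases that differ from Lce1a1.
Lce1a1: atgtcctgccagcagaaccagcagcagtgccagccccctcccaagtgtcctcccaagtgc
Lce1a2: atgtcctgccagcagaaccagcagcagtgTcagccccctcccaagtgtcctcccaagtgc
Lce1g: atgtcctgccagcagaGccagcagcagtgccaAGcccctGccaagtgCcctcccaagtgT
Lce1m: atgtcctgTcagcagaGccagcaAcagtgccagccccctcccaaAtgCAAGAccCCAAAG
Lce1a2 differed from Lce1a1 at 1 of these 60 bases, Lce1g at 6 and Lce1m at 15. Over whole transcripts, 9.12% to 27.1% of the 50-base windows of 13 Lce1 genes occurred in a transcript of another gene. Lce1m, Lor, Rptn, Sprr1a and Sprr1b shared none. At the other end, 96.3% of the windows of Sprr2a1 and 96.5% of those of Sprr2a2 were shared, and exons of these 2 genes overlap, so their separate counts are uncertain and their sum is given below. In Flg, Hrnr and Flg2 the copies lie within the gene: 79.2%, 69.1% and 65.3% of the windows of the longest transcript occurred in it more than once.

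The start regions of the families differ in the letters they hold. The 250 bases before the RefSeq start site (GRCm38.p6) are shown for 4 genes that are described below, Rptn and Sprr1b, which had the smallest p-values of the 2 directions among single-copy members, and Lor and Lce1c as the highest member and the Lce gene with the smallest p-value. Capitals mark the TATA box TATAAA, the AP-1 motif TGANTCA and the Grainyhead-like motif AACCNGTT, each searched on both strands.
Rptn, chr3:93393449-93393698, plus strand: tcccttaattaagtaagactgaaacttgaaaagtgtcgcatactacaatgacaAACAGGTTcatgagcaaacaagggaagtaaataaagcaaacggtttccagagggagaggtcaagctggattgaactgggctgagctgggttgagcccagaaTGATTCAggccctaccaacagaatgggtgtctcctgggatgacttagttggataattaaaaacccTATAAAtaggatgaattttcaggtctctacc
Sprr1b, chr3:92438780-92439029, minus strand: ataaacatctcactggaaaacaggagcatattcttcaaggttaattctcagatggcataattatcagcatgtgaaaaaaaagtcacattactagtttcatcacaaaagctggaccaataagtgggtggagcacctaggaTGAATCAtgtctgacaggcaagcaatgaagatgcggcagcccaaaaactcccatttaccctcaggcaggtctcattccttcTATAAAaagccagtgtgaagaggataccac
Lor, chr3:92083143-92083392, minus strand: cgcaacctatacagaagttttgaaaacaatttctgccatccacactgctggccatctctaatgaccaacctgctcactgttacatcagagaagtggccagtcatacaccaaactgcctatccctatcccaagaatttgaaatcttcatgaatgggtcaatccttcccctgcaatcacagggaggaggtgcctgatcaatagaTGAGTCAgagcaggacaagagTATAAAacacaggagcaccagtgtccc
Lce1c, chr3:92678997-92679246, plus strand: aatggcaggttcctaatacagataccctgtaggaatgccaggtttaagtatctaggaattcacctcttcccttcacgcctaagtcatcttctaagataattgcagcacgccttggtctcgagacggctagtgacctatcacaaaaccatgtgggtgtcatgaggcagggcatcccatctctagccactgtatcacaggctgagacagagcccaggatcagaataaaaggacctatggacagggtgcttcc
RefSeq start regions were found for 38 of the 42 genes. Over 300 bases, 250 before the start and 50 after, TGANTCA was present in 14 of these 38 (36.8%) and in 7.81% of all 32851 start regions; TATAAA was present in 18 (47.4%) and in 13.6% of all. The 14 with TGANTCA were Lor, Ivl, Flg, Flg2, Rptn, Sprr1a, Sprr1b and 7 Sprr2 genes, and no Lce gene was among them. In the 7 Sprr2 genes, Sprr2b, Sprr2d, Sprr2e, Sprr2f, Sprr2h, Sprr2i and Sprr2k, the TATA box began at base −29 and the first AP-1 motif between bases −198 and −193, so the 2 motifs stood at nearly the same places. AACCNGTT, the motif of Grainyhead-like factors such as Grhl3, was found in Rptn only among the members, against 2.09% of all start regions, and the Gli motif GACCACCCA in 0 of 38, against 0.253% of all. A match is a run of letters and not a shown binding site, and no listed match overlapped another. In Lce6a and Lce3e the TATAAA match was TTTATA, on the other strand, at bases −218 and −243. Members with like start regions, such as the Sprr2 genes, were counted one by one in these shares. Lce1c held none of these exact letters. Near matches, such as its run aataaaa close to the start, were not counted. Among the Lce1 genes, TATAAA began at base −30 in Lce1d and at base −29 in Lce1m.

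Per kilobase of exon, the most abundant member was Lor, at 465 CPM per kb over all 6 libraries. It was followed by Sprr1a (179), Lce1a1 (129), Lce1d (115) and Lce1b (104 CPM per kb). The 5 fused-type genes lay between 3.61 CPM per kb, for Flg2, and 59.1 CPM per kb, for Hrnr. Most windows of Flg, Hrnr and Flg2 repeat within the gene, and how such reads were counted is not known. Their place in this order is therefore uncertain. For Flg the exon length used, 18829 bases, also exceeds its longest transcript, of 14497 bases. Ivl, at 14.3 CPM per kb, was well under Lor. The 7 members that did not pass the filter were Lce3d, Lce3e, Lce3f, Sprr2f, Sprr2g, Sprr2j-ps and Sprr2k, with 0 to 12 estimated counts in any library. A count of 0 allows up to 3 counts, or 0.117 to 0.173 CPM in these libraries, for counting error only.

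No member passed an adjusted p of 0.05 in the edgeR quasi-likelihood test with 3 libraries against 3. By DESeq2 6 members passed, given at the end. Over all 15422 genes tested, 1.60% passed, 1.24% higher and 0.357% lower in the knockout. The smallest adjusted p among the members was 0.0603, for Sprr1b. At an unadjusted p under 0.05 there were 13 members, 11 lower and 2 higher, where 19.0% of all genes were at that level, 9.10% lower and 9.90% higher. The groups did not overlap in 11 members, 9 lower and 2 higher, against 25.6% of all genes, 12.8% in each direction. The values below are therefore levels and differences with their errors, and none of the members is described as changed by this test.

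Most Lce genes had lower mean levels in the knockout, none past the test. Of the 16 tested, 15 had a log2 fold change below 0, where 50.7% of all genes tested did, and their median was −0.27 against −0.0036 for all genes. The sum over all 19 Lce genes was 638, 618 and 649 CPM in the knockout libraries and 668, 859 and 809 CPM in the controls. All 3 knockout sums lay below all 3 control sums, with a mean of 635 ± 15.8 against 779 ± 99.2 CPM (SD, n = 3 each), and the knockout libraries were closer to each other than the controls were. For single genes, the groups did not overlap in 7 of 16, all lower in the knockout, where 12.8% of all genes were lower without overlap. At an unadjusted p under 0.05, 8 of 16 were lower, against 9.10% of all genes. These counts are over genes that share reads, lie next to each other and were chosen with earlier results of these data known. The 7 markers of the suprabasal layers also lay below 0. The summed tail scale and interscale keratins were lower in every knockout library, though 1 of these 4 keratins lay above 0. Their values are given further on.

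Within the Lce1 genes the differences were uneven. Lce1c had 53.7, 51.6 and 58.0 CPM in the knockout libraries and 62.7, 80.6 and 79.5 CPM in the controls, with no overlap between the groups. Its log2 fold change was −0.45 with a standard error of 0.10 and an edgeR adjusted p of 0.0892, the smallest p among the Lce genes. Lce1m, the Lce1 gene whose coding start departs most from Lce1a1 and which shares no 50-base window with another gene, had 21.5, 17.6 and 33.2 CPM in the knockout libraries and 33.6, 38.6 and 45.1 CPM in the controls. The highest knockout value of Lce1m, in DE688, lay just under the lowest control value, in DE680, and the log2 fold change was −0.69 with a standard error of 0.22 and an edgeR adjusted p of 0.165. Lce1l had 50.4, 48.5 and 58.5 CPM in the knockout libraries and 59.8, 67.4 and 84.9 CPM in the controls, again without overlap. The log2 fold change of Lce1l was −0.43 with a standard error of 0.13 and an edgeR adjusted p of 0.153.

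Lce1a1, Lce1d, Lce1b and Lce1a2 were also among the 6 Lce genes with the most CPM. Lce1a1 had 84.6, 76.8 and 87.8 CPM in the knockout libraries and 90.2, 105 and 103 CPM in the controls, a log2 fold change of −0.26 with a standard error of 0.08 and an edgeR adjusted p of 0.153, with no overlap. Lce1b had 60.8, 58.9 and 59.2 CPM in the knockout libraries and 64.2, 84.3 and 75.8 CPM in the controls, with knockout values within a narrow range below all controls and a log2 fold change of −0.33 with a standard error of 0.10 and an edgeR adjusted p of 0.142. Lce1d and Lce1a2 overlapped between the groups; their log2 fold changes were −0.29 and −0.20, with edgeR adjusted p of 0.229 and 0.307. Lce1d had 77.4, 67.2 and 66.1 CPM in the knockout libraries and 72.0, 95.2 and 90.2 CPM in the controls. In Lce1a2 the values were 61.7, 61.3 and 62.0 CPM in the knockout libraries and 61.8, 81.6 and 69.7 CPM in the controls, so the lowest control library, DE680, stood at the level of the knockout. At the other end of the family, Lce1k had 9.54, 9.36 and 8.99 CPM in the knockout libraries and 8.16, 12.4 and 6.94 CPM in the controls: the knockout values lay inside the range of the controls, and the log2 fold change was 0.02 with a standard error of 0.21 and an edgeR adjusted p of 0.966. Lce1e and Lce1f, its neighbours in the family at near 0 difference, had log2 fold changes of −0.04 and −0.04; Lce1g, Lce1h, Lce1i and Lce1j had −0.39, −0.27, −0.11 and −0.18. Outside Lce1, Lce6a was at −0.24 and Lce3c at −0.64 with a standard error of 0.39 and an edgeR adjusted p of 0.409, the latter with 1.31, 0.693 and 2.18 CPM in the knockout libraries and 1.86, 2.28 and 2.50 CPM in the controls. Lce3c is of the Lce3 group, whose human relatives are known for their rise in wounded and psoriatic skin, and its 3 sister genes were below the filter.

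**Figure D1:**
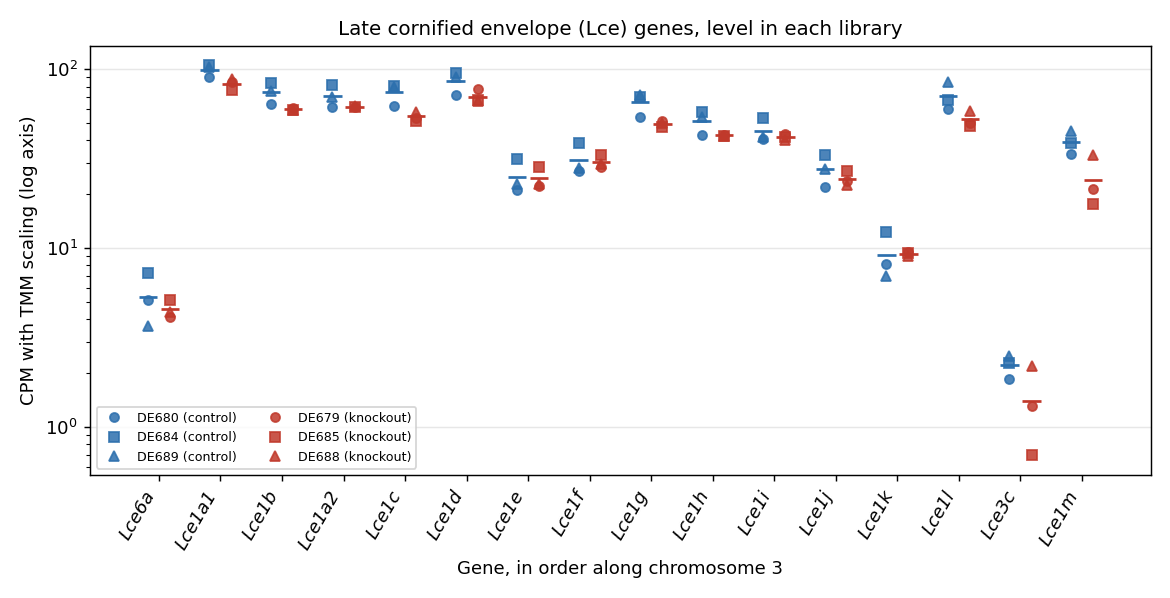
Level of each of the 16 tested Lce genes (x axis, in order along chromosome 3) in each library, in CPM with TMM scaling on a log axis; red points are the 3 knockout libraries, blue points the 3 controls, and short lines the group means. In 7 of the 16 genes all knockout points lie below the lowest control point; in the other 9, Lce1e, Lce1f and Lce1k among them, the groups overlap.

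The Sprr genes did not share a direction. Of 11 tested, 7 had a log2 fold change above 0 and 4 below 0, with a median of 0.24, while the sum of all 15 was lower in the knockout, with a log2 ratio of −0.13. Median and sum thus differ in sign. The summed level was 357, 313 and 412 CPM in the knockout libraries and 435, 366 and 385 CPM in the controls, so the groups overlapped. Sprr genes are known to rise in stressed and wounded epidermis, where they can stand in for loricrin.

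Sprr1b and Sprr1a, the 2 Sprr1 genes and both free of shared windows, had means on opposite sides. Sprr1b (chromosome 3, 92436809 to 92438789, minus strand, GRCm38) had 39.6, 55.9 and 40.3 CPM in the knockout libraries and 73.2, 85.5 and 67.4 CPM in the controls. Every knockout library was below every control, with a knockout mean of 45.2 ± 9.20 and a control mean of 75.4 ± 9.26 CPM (SD, n = 3), and the log2 fold change was −0.74 with a standard error of 0.15 and an edgeR adjusted p of 0.0603. Sprr1a (chromosome 3, 92483952 to 92485895, minus strand) had 136, 145 and 197 CPM in the knockout libraries and 154, 135 and 97.1 CPM in the controls. Its groups overlapped, DE688 being highest and DE689 lowest, and its log2 fold change was 0.31 with a standard error of 0.19 and an edgeR adjusted p of 0.417. The ratio of Sprr1a to Sprr1b CPM, taken after both values were seen, was 3.43, 2.60 and 4.88 in the knockout libraries and 2.11, 1.58 and 1.44 in the controls. These ratios did not overlap, and a two-sided exact permutation test gave p = 0.1, the smallest that 3 against 3 allows. As the pair was picked by these same values, neither result adds support.

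Sprr1b was past the threshold in 4 of 14 alternative fits, with adjusted p from 6.37e-05 to 0.209. These were DESeq2 (6.37e-05), limma-voom (0.0475), a covariate for Y-linked transcripts in edgeR (0.00384) and edgeR without DE685 (0.0288). In the 2 libraries with Y-linked transcripts the log2 ratio was −0.61, and in the other 4 it was −0.82.

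Among the Sprr2 genes, Sprr2b had the highest level per kilobase, 99.2 CPM per kb. It had 57.6, 41.6 and 69.6 CPM in the knockout libraries and 107, 68.1 and 123 CPM in the controls. DE688 was just above DE684, so the groups overlapped by 1 pair of libraries, and the log2 fold change was −0.82 with a standard error of 0.24 and an edgeR adjusted p of 0.141. Within the libraries with Y-linked transcripts it was −0.71 and within the others −0.85, and with the covariate for Y-linked transcripts the edgeR adjusted p was 0.00802, over a range of 0.00802 to 0.349 across alternatives. The 3 Sprr2a genes, read as one, had 93.3, 39.0 and 76.1 CPM in the knockout libraries and 75.3, 47.8 and 69.5 CPM in the controls; the groups overlapped and the summed log2 ratio was 0.11. Taken one by one, Sprr2a1, Sprr2a2 and Sprr2a3 had log2 fold changes of −0.79, 0.15 and 0.37 (edgeR adjusted p 0.494, 0.825 and 0.495); shared windows make these separate values uncertain.

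Sprr2d had 10.8, 14.8 and 7.43 CPM in the knockout libraries and 8.12, 13.5 and 5.91 CPM in the controls, a log2 fold change of 0.26 with a standard error of 0.34 and an edgeR adjusted p of 0.718. Sprr2h had 14.8, 12.4 and 16.1 CPM in the knockout libraries and 13.3, 12.4 and 18.3 CPM in the controls, a log2 fold change of −0.02 with a standard error of 0.17 and an edgeR adjusted p of 0.963. Both overlapped between the groups, and Sprr2h lay at 0 within its error. Sprr2e, named after its values were seen, had the largest positive value of all members, 1.48 with a standard error of 0.52 and an edgeR adjusted p of 0.192, but rests on few reads. Its estimated counts were 26, 15 and 23 in the knockout and 11, 2 and 11 in the control, so 3 knockout libraries but 2 controls held at least 10, and 10.2% of its windows were shared. Sprr2i and Sprr4 had log2 fold changes of 0.66 and 0.24.

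The 5 fused-type genes had a median log2 fold change of 0.03, with 3 above and 2 below 0. Flg had 349, 494 and 453 CPM in the knockout libraries and 346, 688 and 496 CPM in the controls, with DE680 lowest and DE684 highest, both controls. Hrnr, which encodes hornerin, a filaggrin-like protein, had 578, 641 and 525 CPM in the knockout libraries and 607, 1045 and 571 CPM in the controls; DE684 stood far above the other 5. Neither group was separate, and the log2 fold changes were −0.24 for Flg and −0.35 for Hrnr, with edgeR adjusted p of 0.620 and 0.418. Without DE684 these became 0.04 and −0.02, with edgeR adjusted p of 0.940 and 0.929, so the lower means of both genes rest on that control library. Flg2, another filaggrin relative, had 52.0, 83.6 and 99.8 CPM in the knockout libraries and 56.0, 74.0 and 84.7 CPM in the controls, overlapping throughout. Its log2 fold change was 0.13 with a standard error of 0.24 and an edgeR adjusted p of 0.802.

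Rptn had the highest log2 fold change of the fused-type genes. Repetin is an envelope precursor of the granular layer that is also made in hair follicles. Rptn (chromosome 3, 93393699 to 93399442, plus strand) had 35.6, 49.7 and 52.3 CPM in the knockout libraries and 26.6, 29.9 and 18.3 CPM in the controls. All knockout values were above all control values, with a knockout mean of 45.9 ± 8.99 and a control mean of 24.9 ± 5.99 CPM (SD, n = 3) and a log2 fold change of 0.88 with a standard error of 0.20 and an edgeR adjusted p of 0.0884. Its difference within the libraries with Y-linked transcripts was 0.73 and within the other 4 0.97. It passed in DESeq2 (adjusted p 0.000347) and with the covariate for Y-linked transcripts (0.0490), over a range of 0.000347 to 0.256, and kept its direction in all 14 alternatives. Gm37857, an annotated gene on the same strand, overlaps exons of Rptn, so reads there could be counted to either. The size of the overlap was not measured, but no 50-base window of Rptn occurred in a transcript of another gene. All 7 tested keratins of the hair cortex and cuticle lay above 0 too, with sums of 21.4 to 45.5 CPM over knockout libraries and 15.9 to 37.8 CPM in the controls, and 0 called in edgeR with or without the covariate, DESeq2 or limma-voom. Of the 5 tested keratins of the inner root sheath, 2 lay above 0 and 3 below, with a median of −0.04. The part of follicle cells in the Rptn value was not tested. Set against its neighbour Hrnr, in a ratio also chosen after the values were seen, Rptn was 0.0616, 0.0776 and 0.0996 of Hrnr in the knockout and 0.0438, 0.0286 and 0.0320 in the control (two-sided exact permutation p = 0.1, the smallest possible). A further ratio of this kind, Lce1m over Lce1k, was 2.25, 1.88 and 3.70 in the knockout and 4.12, 3.12 and 6.49 in the control; it overlapped (two-sided exact permutation p = 0.2). Each of these 3 ratios was chosen after its genes had been seen. With 3 libraries against 3 this permutation test cannot give a p under 0.1, so its p-values decide nothing here.

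Trichohyalin (Tchh) strengthens the inner root sheath of the hair follicle. Tchh had 18.9, 25.4 and 27.2 CPM in the knockout libraries and 21.2, 29.4 and 19.5 CPM in the controls, a log2 fold change of 0.03 with a standard error of 0.19 and an edgeR adjusted p of 0.956, and the groups overlapped. The 6 inner root sheath keratins, summed, ranged over 18.9 to 50.1 CPM over knockout libraries and 20.3 to 57.7 CPM in the control, with DE679 lowest and DE684 highest, the same 2 libraries that held the lowest and highest Tchh. None of the 6 was at 0 in every library.

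The 3 single genes all had log2 fold changes below 0. Lor had 717, 742 and 774 CPM in the knockout libraries and 881, 1053 and 795 CPM in the controls. The knockout values were all below the controls, with a knockout mean of 744 ± 28.7 and a control mean of 909.9 ± 131 CPM (SD, n = 3) and a log2 fold change of −0.29 with a standard error of 0.10 and an edgeR adjusted p of 0.196. Ivl, the early scaffold, had 19.7, 21.0 and 32.3 CPM in the knockout libraries and 34.4, 29.0 and 28.6 CPM in the controls; DE688 lay among the controls, and the log2 fold change was −0.33 with a standard error of 0.19 and an edgeR adjusted p of 0.373. Crct1 had 65.9, 77.5 and 84.3 CPM in the knockout libraries and 82.4, 82.7 and 89.2 CPM in the controls, overlapping between DE688 and the controls. Its log2 fold change was −0.16 with a standard error of 0.09 and an edgeR adjusted p of 0.391. In a bulk sample, fewer cells of the upper layers and less of a transcript per cell cannot be told apart, which holds for every value here.

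**Figure D2:**
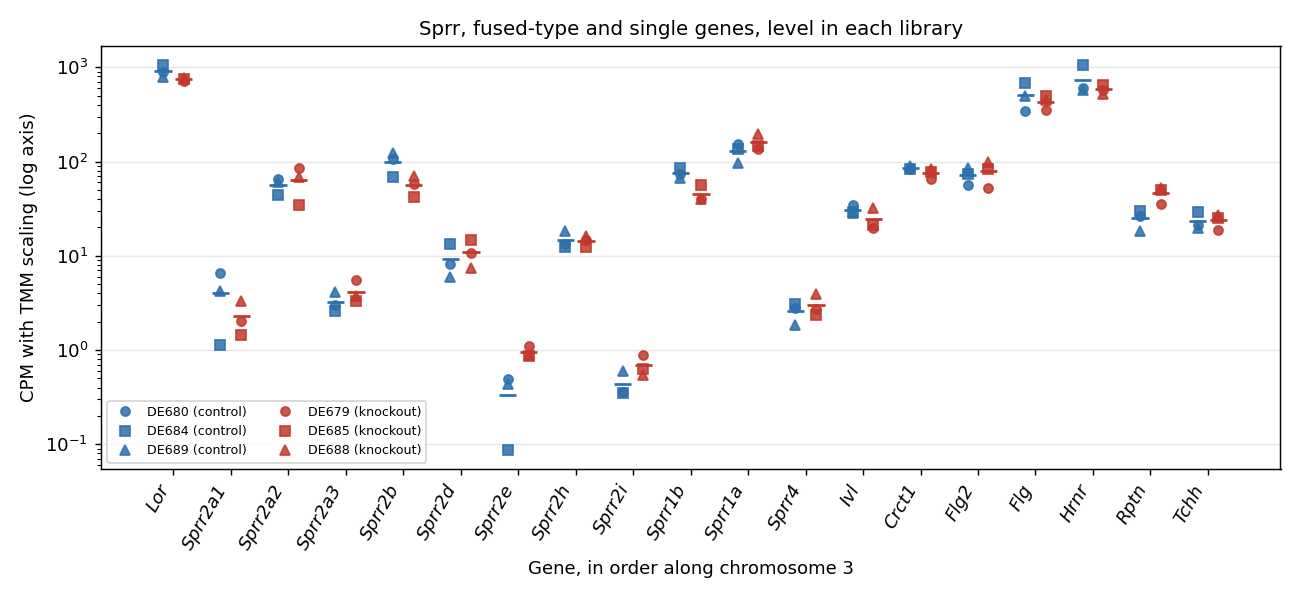
Level of the 19 tested Sprr, fused-type and single genes (x axis, in order along chromosome 3) in each library, in CPM with TMM scaling on a log axis; red points are knockout libraries, blue points controls, short lines the group means. Lor and Sprr1b lie lower and Rptn and Sprr2e higher in all 3 knockout libraries, and DE684 stands highest for Hrnr and Flg.

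The members span 1370 kb of chromosome 3, from the start of Lor at 92080271 to the end of Tchh at 93449077 (GRCm38). The genes from Lce1a1 to Lce1l, which are neighbours among the members, had values from −0.45 to 0.02, whereas Sprr values lay on both sides of 0: Sprr2a3 at 0.37, Sprr2b at −0.82 and Sprr2d at 0.26 are direct neighbours among the members. In the same stretch 9 other genes were tested, and 8 of these had a log2 fold change below 0, with a median of −0.23 and 0 called in edgeR with genotype as the only term; 3 of them were lower at an unadjusted p under 0.05, against 9.10% of all genes.

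**Figure D3:**
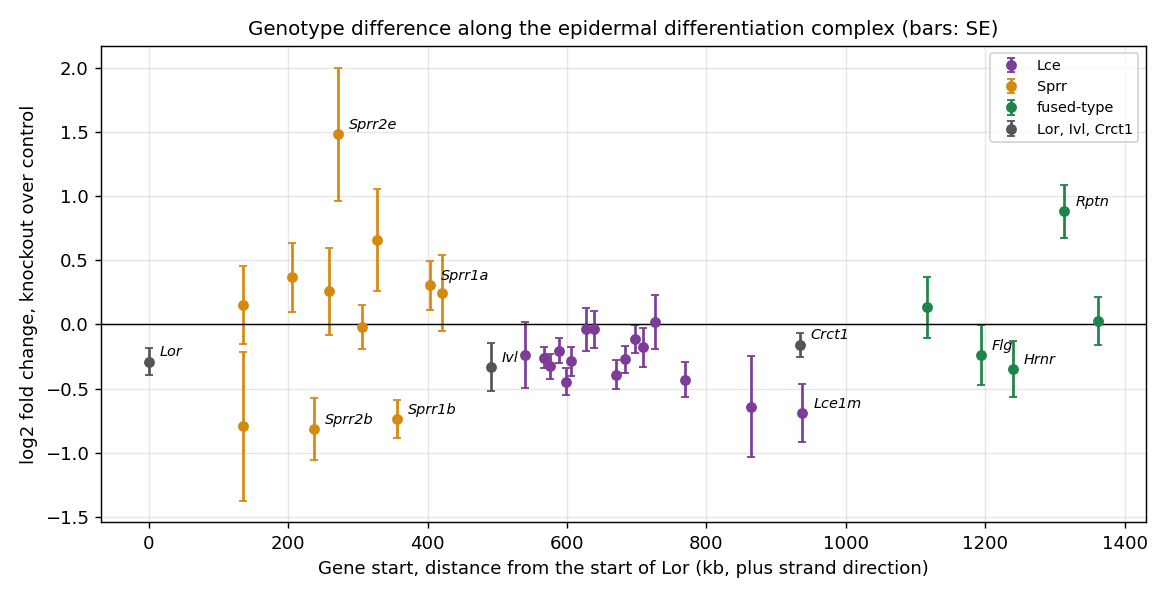
Log2 fold change of knockout over control (y axis, bars are the SE from edgeR) for the 35 tested members against the distance of the gene start from the start of Lor in kb (x axis), coloured by family. Lce values sit between −0.69 and 0.02, Sprr values scatter on both sides of 0, and Rptn is the highest of the fused-type genes at 0.88.

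Markers of the upper layers lay lower as well. All 7 suprabasal markers (Krt1, Krt10, Dsg1a, Dsc1, Krtdap, Sbsn and Calm4) had log2 fold changes below 0, from −0.47 to −0.14 with a median of −0.28. In edgeR with genotype as the only term 0 were called. At an unadjusted p under 0.05, 4 of the 7 were lower, against 9.10% of all genes. DESeq2 called Calm4, Dsc1 and Krtdap lower, edgeR with the covariate for Y-linked transcripts Calm4 and Dsc1, and limma-voom Calm4. Their summed level was 20387 to 27539 CPM over knockout libraries and 23185 to 37235 CPM in the control. Krt10 had 14949.6, 17304 and 12432 CPM in the knockout libraries and 17491, 25272 and 13855 CPM in the controls, a log2 fold change of −0.34 with a standard error of 0.21 and an edgeR adjusted p of 0.423, and Krt1 one of −0.25 with a standard error of 0.40 and an edgeR adjusted p of 0.777. Krt5 and Krt14 had log2 fold changes of 0.21 and 0.03, and the 6 basal markers summed to 30475 to 34248 CPM over knockout libraries and 26528 to 31536 CPM in the control. Of these 6, 4 lay above 0 and 2 below, and 0 were called in edgeR with genotype as the only term. The basal marker Krt15 stood at 0.38 with a standard error of 0.10 and an edgeR adjusted p of 0.104, without overlap. DESeq2 and edgeR with the covariate called Krt15 higher (adjusted p 0.0032 and 0.0337). Expressed relative to Krt1 plus Krt10 of the same library, the median Lce difference was 0.03 in place of −0.27, that of Sprr 0.59 and that of the fused-type genes 0.38. On that scale the summed Lce level was 3.78%, 2.88% and 4.64% of Krt1 plus Krt10 in the knockout libraries and 3.30%, 2.91% and 5.11% in the controls, which overlap. The summed Sprr level was 2.12%, 1.46% and 2.94% in the knockout libraries and 2.15%, 1.24% and 2.43% in the controls. For the fused-type genes it was 6.13%, 6.03% and 8.27% in the knockout libraries and 5.21%, 6.31% and 7.52% in the controls. Both sums overlap, with log2 ratios of 0.17 and 0.10, under the medians. The part of cell makeup in these values was not tested.

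DE684, the control with Y-linked transcripts, was the highest of the 6 libraries in 12 of 16 Lce genes and 3 of 5 fused-type genes, against 17% of all genes tested (2625 of 15422), and in 1 of 11 Sprr genes. DE685, the knockout with Y-linked transcripts, was the lowest in 8 of 16 Lce genes, against 2428 of 15422 over all genes. It was lowest in 0 of 5 fused-type and 2 of 11 Sprr genes. Krt10 was also highest in DE684. Without DE684 the median log2 fold change of the Lce genes was −0.20, and the log2 ratio of the summed Lce level was −0.22, with the knockout still below both remaining controls. Within the 2 libraries with Y-linked transcripts the summed Lce difference was −0.48, and within the other 4 libraries it was −0.20. The first of these sets 1 library against 1 and has no replicate check.

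**Figure D4:**
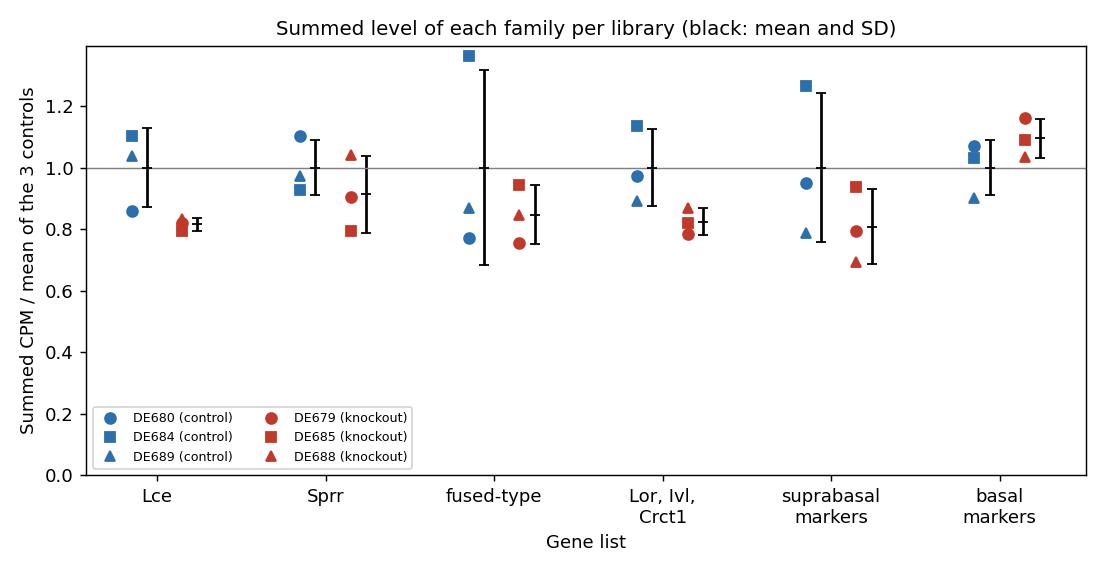
Summed CPM of each family and of the suprabasal and basal marker lists in each library, divided by the mean of the 3 controls (y axis); red points are knockout libraries, blue points controls, and black bars the mean and SD over 3 libraries. The Lce and single-gene sums are lower in all 3 knockout libraries, and the control DE684 is highest for Lce, fused-type, single and suprabasal sums.

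Other cell types were traced through their markers. The stress and wound keratins and alarmins Krt6a, Krt6b, Krt16, Krt17, S100a8 and S100a9, which often accompany Sprr genes, were all above 0, with a median of 0.90 and a sum of 2091 to 2818 CPM over knockout libraries and 1479 to 2173 CPM in the control. In edgeR with genotype as the only term 0 of the 6 were called. At an unadjusted p under 0.05, where 9.90% of all genes were higher, 3 were higher, without overlap: Krt17 at 0.52, S100a8 at 1.73 and S100a9 at 1.92. Krt6a, Krt16 and Krt6b overlapped, at 0.07, 0.16 and 1.27 with standard errors of 0.19, 0.39 and 0.67. DESeq2 called Krt17 higher (adjusted p 0.00767). Sprr1b, at −0.74, had the opposite sign to these 6 genes, while of the 11 tested Sprr genes 7 lay above 0 and 4 below. Summed fibroblast markers were 129 to 142 CPM over knockout libraries and 37.4 to 79.1 CPM in the control, of which 1 of 5 tested, Dcn, rose (log2 fold change 1.90 with a standard error of 0.21 and an edgeR adjusted p of 0.00782), and 3 of 5 lay below 0. All 5 melanocyte and all 6 immune markers lay above 0, with 0 called in edgeR with genotype as the only term. At an unadjusted p under 0.05, 2 melanocyte markers and 0 immune markers were higher, and DESeq2 called the melanocyte gene Pmel higher (adjusted p 0.0418). Their summed levels were 63.0 to 100.4 and 40.7 to 96.9 CPM over knockout libraries and 42.1 to 68.0 and 20.3 to 79.1 CPM in the controls. The 4 keratins of tail scale and interscale skin (Krt2, Krt36, Krt31 and Krt84) summed to 27832, 20547 and 23280 CPM in the knockout libraries and 31412, 29368 and 30568 CPM in the controls. This sum was lower in every knockout library, as the Lce sum was, but each of the 4 genes alone overlapped between the groups. Krt31, at a mean of 4.92 CPM, lay above 0, at 1.22 with a standard error of 0.53 and an edgeR adjusted p of 0.264. Of the 4 genes 3 lay below 0, 1 of them, Krt2, at an unadjusted p under 0.05, and 0 were called in edgeR with or without the covariate, DESeq2 or limma-voom. Summed sebaceous markers overlapped, at 7754 to 8449.6 CPM over knockout libraries and 8015 to 9284 CPM in the controls; Mgst1 and Elovl6 were lower at an unadjusted p under 0.05, and DESeq2 called Mgst1 (adjusted p 0.0344). Dissociation stress genes summed to 1116 to 1338 CPM over knockout libraries and 1002 to 1366 CPM in the control. The part of these cells in the member values was not tested.

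Among the genes that build and cross-link the envelope, 2 of 11 tested were called, 1 in each direction, against 1.60% of all genes. Tgm5, a transglutaminase that cross-links loricrin, involucrin and small proline-rich proteins, had 32.1, 40.8 and 44.5 CPM in the knockout libraries and 19.5, 16.1 and 16.8 CPM in the controls. Every knockout value lay above the highest control, with a knockout mean of 39.2 ± 6.39 and a control mean of 17.4 ± 1.80 CPM (SD, n = 3), and it rose by a log2 value of 1.17 with a standard error of 0.14 and an edgeR adjusted p of 0.00977. All 14 alternatives kept this call, with adjusted p up to 0.0456. Cornifelin (Cnfn), a minor envelope protein, fell: it had 52.7, 59.0 and 62.0 CPM in the knockout libraries and 76.7, 73.8 and 77.9 CPM in the controls, without overlap. Its log2 fold change was −0.40 with a standard error of 0.07 and an edgeR adjusted p of 0.0466. The fall of Cnfn was past the threshold in 7 of 14 alternatives and in none of the 6 that left out a library, with adjusted p from 0.00135 to 0.153. The main epidermal cross-linkers Tgm1 and Tgm3 had log2 fold changes of −0.17 and 0.21, with edgeR adjusted p of 0.271 and 0.618, and the scaffold proteins Evpl, Ppl and Dsp 0.11, −0.01 and −0.13. DESeq2 and edgeR with the covariate also called the protease inhibitor Csta1 lower (adjusted p 0.00342 and 0.00777), which stood at −0.60 with a standard error of 0.15 and an edgeR adjusted p of 0.0973 in edgeR with genotype alone. Kprp, which lies among the Lce genes, had −0.23 with a standard error of 0.08 and an edgeR adjusted p of 0.198. Cst6 of the same list went the other way. It stood at 0.39 with a standard error of 0.15 and an edgeR adjusted p of 0.224, and its groups overlapped. At an unadjusted p under 0.05, 3 of the 11 were lower and 2 higher, where 9.10% of all genes were lower and 9.90% higher.

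Of the 11 genes of filaggrin processing 0 were called in edgeR with genotype as the only term. At an unadjusted p under 0.05, 2 were lower and 2 higher, where 9.10% of all genes were lower and 9.90% higher. The smallest p was that of Klk7, a protease that loosens the horny layer, with 215, 245 and 275 CPM in the knockout libraries and 319, 349 and 324 CPM in the controls. Its knockout values were all below the controls, and the log2 fold change was −0.43 with a standard error of 0.09 and an edgeR adjusted p of 0.0773. DESeq2 called Klk7 lower (adjusted p 0.000948) and the protease Capn1 higher (0.00757), and edgeR with the covariate for Y-linked transcripts called Klk5 lower (0.0365). Casp14 and Asprv1, proteases that cut filaggrin and its precursor, had −0.14 and −0.20. Of 16 regulators of the complex 0 were called in edgeR with genotype as the only term. At an unadjusted p under 0.05, 2 lay lower and 2 higher, against 9.10% and 9.90% of all genes. Trp63, the master factor of stratified epithelium, had the smallest p and a log2 fold change of 0.23 with a standard error of 0.06 and an edgeR adjusted p of 0.104; it had 656, 651 and 639 CPM in the knockout libraries and 568, 523 and 565 CPM in the controls. Klf4, which drives late differentiation, had −0.32 with a standard error of 0.09 and an edgeR adjusted p of 0.119, while Grhl3, Ovol1 and Zfp750 had −0.11, −0.12 and −0.05. DESeq2 called Trp63 and Satb1 higher (adjusted p 0.00717 and 0.0418) and Klf4 lower (0.0129), and edgeR with the covariate called Klf4 lower (0.0362). Of the 8 targets of Nrf2, the oxidative stress factor known to induce some Sprr2 genes, 0 were called in edgeR with or without the covariate, in DESeq2 or in limma-voom, and 1 was higher at an unadjusted p under 0.05. This was Nqo1, at a log2 fold change of 0.39 with a standard error of 0.13 and an edgeR adjusted p of 0.183.

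**Figure D5:**
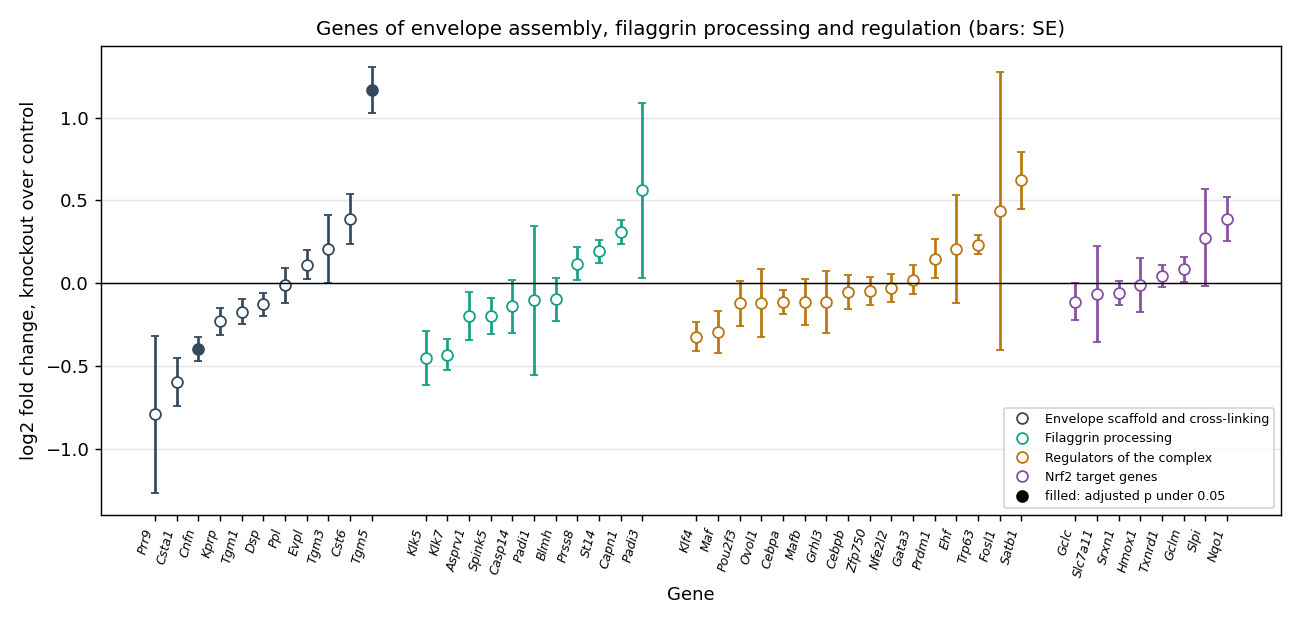
Log2 fold change of knockout over control (y axis, bars are the SE from edgeR) for genes of 4 lists: envelope scaffold and cross-linking, filaggrin processing, regulators of the complex and Nrf2 targets. Filled points passed an adjusted p of 0.05; these are Tgm5 (higher) and Cnfn (lower), and all others are open.

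The number of members called differed between fits. DESeq2 on the same counts called 6 of 35: Lce1c, Lce1g, Lce1l, Lce1m and Sprr1b lower and Rptn higher, where it called 5.89% of all genes with an adjusted p, 2.07% lower and 3.81% higher. With the covariate for Y-linked transcripts, edgeR called Sprr1b and Sprr2b lower and Rptn higher, against 2.65% of all genes, 0.713% lower and 1.94% higher. Limma-voom called Sprr1b, against 1.58% of all genes, and limma on the values normalized by the authors called 0 members, against 1.65%. In edgeR without DE685, Sprr1b was called (0.657% of all genes), and without DE680, Lce1c and Lce1g (0.592%). Without DE679, DE684, DE688 or DE689 in turn, 0 members were called, against 0.585%, 0.764%, 0.438% and 0.758% of all genes. The labels list the libraries as separate samples and do not say how tails were assigned to them, so the p-values measure the spread between these samples.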

How the data were processed

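Per the labels' protocols, tail epidermis was separated after overnight trypsin and dispase, and libraries were prepared with a stranded mRNA kit. Per the submitters' processing notes, bcl2fastq 2.20, cutadapt 1.18, STAR 2.7.0f and Partek were used with build mm10; the counter, its strand setting and the annotation are not given in the sources used here. The authors deposited estimated counts per gene (whole within 1e-09 for 53.4% to 58.2% of genes, by library) and a normalized signal, in the deposited table the count times 1 constant for each library plus 0.001.

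Counts were rounded, filtered with filterByExpr, scaled with TMM factors and fitted over all 6 libraries with the quasi-likelihood test of edgeR 4.0.16 (R 4.3.3), genotype as the only term. Benjamini-Hochberg adjustment ran over 15422 genes, and an adjusted p under 0.05 was a call. Standard errors were derived from the F statistic and the fitted fold change. Coordinates, exon lengths and transcripts are of GENCODE M21 (GRCm38), and start regions of RefSeq.

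Alternatives used upper-quartile or relative log expression factors, a minimum of 1 CPM on average or no filter, DESeq2 1.42.0, limma-voom or limma on log2 of the authors' signal plus 1 (limma 3.58.1), a covariate for Y-linked transcripts, each library left out, family sums and levels relative to Krt1 plus Krt10. Named members were all fused-type and single genes, the 6 highest Lce and Sprr genes by mean CPM and the 3 largest differences each way above 1 CPM, and any called; from each pathway list, called genes or else the one with the smallest p. Others named in the text are values chosen after they were seen. The members, lists and tests were chosen with earlier results of these data known.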

Additional observations from a re-analysis of the deposited data

How the results depend on the processing

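Over all genes, 247 were called (192 higher, 55 lower), against 872 (565 and 307) with DESeq2, 409 (299 and 110) with the covariate for Y-linked transcripts, and 69 to 121 (65 to 109 and 3 to 19) when one library was left out; other settings stayed within 1.5 times. Calls among members, 0 in the main test, were 4 Lce, 1 Sprr and 1 fused-type gene with DESeq2, 1 Sprr with limma-voom, and 2 Sprr and 1 fused-type gene with the covariate. Without one library they were 0 to 2 Lce and 0 to 1 Sprr genes. The cause was not tested. The median log2 fold change of Lce genes was −0.27, −0.36 to −0.20 without one library and 0.026 relative to Krt1 plus Krt10. For Sprr genes it was 0.24, 0.08 to 0.37 without one library, −0.13 from family sums, which weight abundant genes, and 0.59 relative to Krt1 plus Krt10. For fused-type genes it was 0.03, −0.09 to 0.17 without one library and 0.38 relative to Krt1 plus Krt10. Directions that turned when 1 library was left out, none of them called, were those of Flg (−0.46 to 0.036), Flg2 (−0.082 to 0.36), Tchh (−0.087 to 0.22), Lce1k (−0.14 to 0.30), Sprr2a2 (−0.13 to 0.44), Sprr2d (−0.0077 to 0.64), Sprr2h (−0.13 to 0.17), Krt1 (−0.80 to 0.095) and Krt14 (−0.061 to 0.093). Sprr2h also turned with upper-quartile factors (0.00099) and limma-voom (0.0033). No paired analysis was possible because the columns carry no replicate numbers. Depth limits the scarcest Sprr2 and Lce3 genes.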
